A study of Bos taurus with 9 samples.

Results

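Imprinted genes are expressed mainly from the copy inherited from a single parent, under DNA methylation and histone marks laid down in the germ line. Many of them set fetal and placental growth, and their expression is known to be disturbed in cloned cattle, in which large offspring and placental defects are frequent. The 10 genes described here were listed by symbol for their relevance to cloning: IGF2R, IGF2, PEG3, PEG10, MEST, PLAGL1, PHLDA2, CDKN1C, NAP1L5 and GRB10. Of these, 9 had a row with that symbol, 1 row each, among 16129 gene rows present in all 9 files. PEG3 was not analysed here. PEG10 is named only in the morula files and was followed into the 8-cell files by its gene identifier, ENSBTAG00000038093.2.

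The study made Bos taurus embryos by somatic cell nuclear transfer (SCNT), a cloning method that gives an enucleated egg a donor cell's nucleus. RNA sequencing covered 3 groups of 3 libraries, and the labels give fibroblasts of a Holstein fetus as the donor cells of every group. KDM6A morulae had received mRNA for bovine wild-type KDM6A, the enzyme that removes the H3K27 methylation laid down by polycomb, 1 h after activation, and were collected on day 5 in pools of 5. Control morulae were collected in the same way but not injected, so an injection without KDM6A is not among the groups. The third group was uninjected 8-cell embryos, which the design text takes from an earlier series, so a difference in stage cannot be told apart from one between series. Their labels give neither a day of collection nor a pool size of their own. Independent collection of the libraries of a group is not stated, so the p-values measure only how much these samples vary, and that variation may be technical. In pooled embryos, fewer cells of a type and less RNA per cell cannot be told apart either.

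Values are FPKM, a level corrected for transcript length and library size, so levels can be compared between genes. Summed FPKM over annotated genes was 820346 to 989916 per library, and sequencing depth is not given, so no counting error can be stated. KDM6A stood at 35.65, 87.58 and 79.44 FPKM in the injected morulae, at 10.72, 13.86 and 10.74 in controls and at 6.13, 9.41 and 10.73 in 8-cell embryos, which matches the labels. The pluripotency factor POU5F1 was at 66.02 to 169.33 FPKM in morulae and 6.27 to 10.63 in 8-cell embryos. Other morula and epiblast markers went the other way, such as KLF4, at 97.62 to 159.83 FPKM in morulae and 197.19 to 238.44 in 8-cell embryos. The sum of that list was 1941 to 2705 FPKM in 8-cell embryos, 1400 to 1473 in control and 1141 to 1433 in KDM6A morulae. DPPA3 was the largest part of it in every group. Some libraries stood apart on cell type markers or on KDM6A itself. KDM6A morula replicate 1 had the lowest KDM6A of the injected libraries and was the highest of its group for 15 of 20 morula and epiblast markers. Over all genes it was closer to the controls (Pearson correlations of log2(FPKM + 1) of 0.9889 to 0.9901) than to the other KDM6A morulae (0.9859 and 0.9834). Control morula replicate 1 was the highest of its group for 16 of 16 oocyte and maternal markers, with a summed level of 541.2 FPKM against 43.17 and 146.6 in the other controls, 141.7 to 217.1 in KDM6A morulae and 3962 to 9382 in 8-cell embryos. BTG4 made up most of that sum in control replicate 1, at 374.34 FPKM, and in 8-cell embryos, at 3360.44 to 8657.55. Replicate 2 of the 8-cell group was the highest of its group for 16 of 20 donor fibroblast markers. Among cumulus and granulosa markers 11 had a row, summing to 16.38 to 41.31 FPKM, and of 5 blood markers nearly all of the sum of 67.15 to 220.3 FPKM was the row named HBA, at 65.69 to 219.69.

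Most of the imprinted genes stayed at a low level in all 3 groups. IGF2, IGF2R, PEG10, PLAGL1 and CDKN1C, 5 of the 9, stayed under 1 FPKM in every library. The highest single value among them was 0.9 FPKM, of PLAGL1 in 8-cell embryos, where it was at 0.72 to 0.9. Of all rows in the 9 files, 71.7% reached 1 FPKM in at least 1 library. PHLDA2, MEST and GRB10 were at or above 1 FPKM in all 9 libraries, as were 43.6% of all rows. NAP1L5 reached 1 FPKM in morulae only. The median of the 9 group means was 0.27 FPKM in 8-cell embryos, 0.407 in control morulae and 0.46 in KDM6A morulae, against 1.77, 2.43 and 2.55 over all rows.

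**Figure D1:**
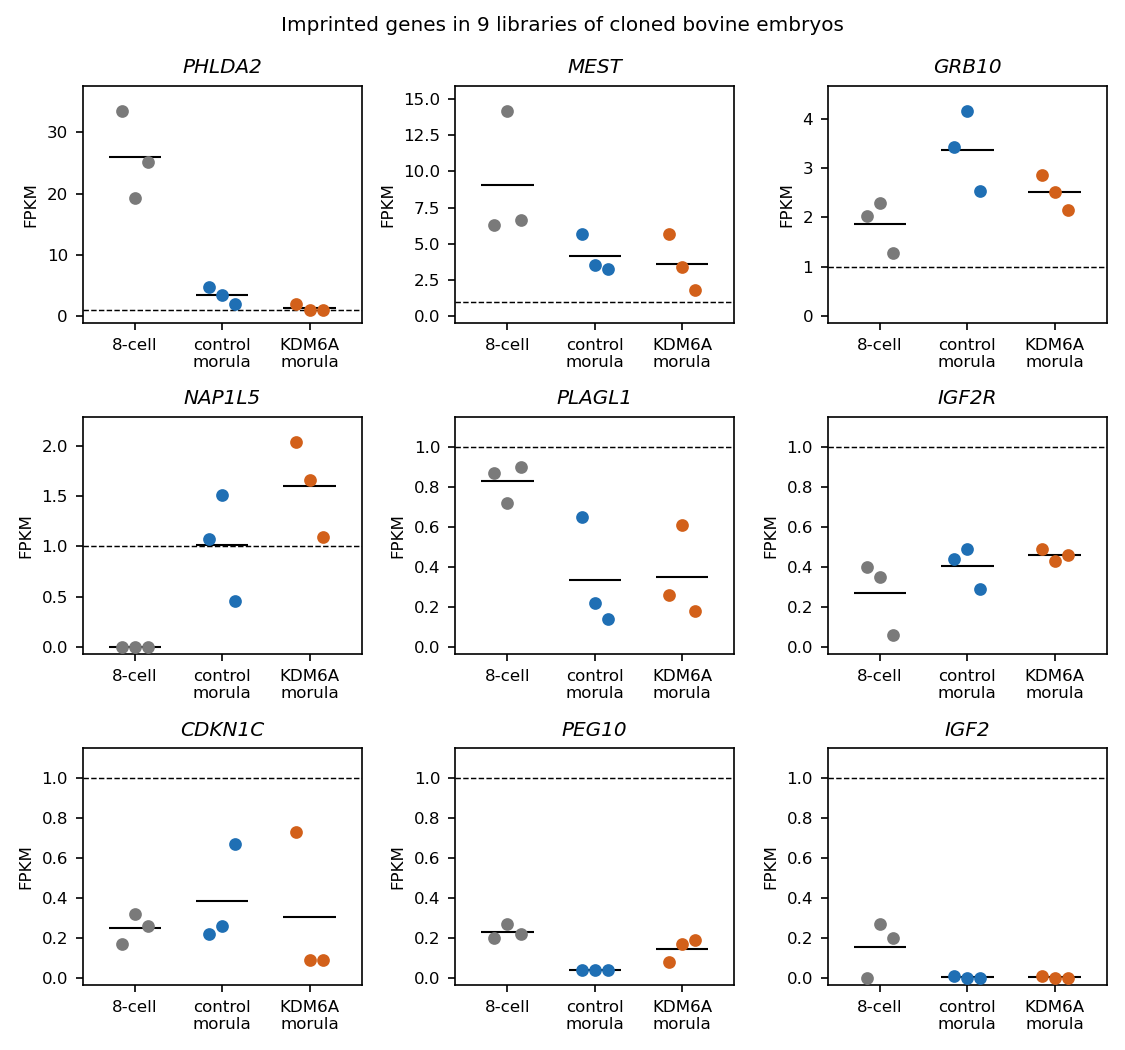
FPKM (linear axis, a scale of its own per panel) of the 9 imprinted genes in 8-cell embryos, control morulae and KDM6A morulae; points are libraries, short lines are means of 3, and the dashed line marks 1 FPKM. PHLDA2 falls from 19.34 to 33.55 FPKM in 8-cell embryos to 1.06 to 4.82 in morulae, while the panels of PLAGL1, IGF2R, CDKN1C, PEG10 and IGF2 stay under the dashed line.

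PHLDA2 showed the largest difference among the imprinted genes tested. It codes for a small pleckstrin homology domain protein, is expressed from the maternal copy and restrains growth of the placenta. In 8-cell embryos it stood at 33.55, 19.34 and 25.12 FPKM, higher than 81% to 85.4% of rows in each library. Control morulae held 4.82, 3.52 and 1.95 FPKM. All 3 control values lay below the lowest 8-cell value, by 14.5 FPKM at the nearest. The means were 26 ± 7.146 (SD, n = 3) and 3.43 ± 1.437 FPKM, a 7.58-fold higher level in 8-cell embryos. Log2 fold changes here are differences in log2(FPKM + 1), so they are too small for genes of low level. For PHLDA2 in control morulae the difference was -2.63 (SE 0.311), at a limma adjusted p of 5.53e-05. This passed under all 14 alternatives, with log2 fold changes from -2.94 to -2.36.

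In KDM6A morulae PHLDA2 was at 1.91, 1.06 and 1.06 FPKM. Each of these lay below each control value, but the nearest were 0.04 FPKM apart. The mean of 1.343 ± 0.4907 FPKM was 2.55-fold below that of controls. The difference was -0.88 (SE 0.281) in log2, and it did not pass over all genes (limma adjusted p = 0.283, unadjusted p = 0.00962). Over 13 alternatives it kept its sign, from -1.25 to -0.66, and none passed the threshold (adjusted p from 0.0585 to 0.812). The control with the most PHLDA2, replicate 1, is the library with the highest oocyte and maternal markers. Without that control the log2 fold change was -0.66 (adjusted p = 0.324). Without that control the fall from 8-cell embryos to control morulae was -2.85 (adjusted p = 0.000164). KDM6A replicate 1, the injected library with the least KDM6A, held the highest PHLDA2 of its group, and without it the difference between the morula groups was -1.05 (adjusted p = 0.0585). It also held the highest MEST, NAP1L5, GRB10 and CDKN1C of its group. Its PEG10 was instead the lowest, at 0.08 FPKM against 0.17 and 0.19, and its PLAGL1 lay between the others, at 0.26 against 0.61 and 0.18. The part of maternal transcripts in either difference was not tested. Against 8-cell embryos, KDM6A morulae were lower by a difference of -3.51 (SE 0.292, adjusted p = 4.05e-06). That comparison shares its 8-cell libraries with the one of control morulae.

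MEST, also called PEG1, is a paternally expressed gene coding for a hydrolase-fold protein and promotes fetal growth. It was at 6.26, 14.19 and 6.65 FPKM in 8-cell embryos, 5.66, 3.53 and 3.23 in control morulae and 5.67, 3.36 and 1.77 in KDM6A morulae. Each morula library lay below each 8-cell library, by 0.59 FPKM at the nearest, and the morula groups overlapped. The 8-cell mean of 9.033 ± 4.47 FPKM was 2.18-fold that of control morulae, 4.14 ± 1.325. MEST fell in control morulae against 8-cell embryos, by -0.91 in log2 (SE 0.334, limma adjusted p = 0.033). It fell also in KDM6A morulae against 8-cell embryos, by -1.13 (SE 0.389, adjusted p = 0.0242). Between the morula groups the log2 fold change was -0.22 (SE 0.321, adjusted p = 0.808), and its sign turned without KDM6A replicate 3, to 0.099.

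The calls of MEST between the stages depended on single libraries, although its difference kept its sign in every alternative. The highest MEST value came from 8-cell replicate 2, the library highest of its own group for 16 of 20 fibroblast markers and 10 of 16 oocyte and maternal markers (summed level 9382 FPKM against 3962 and 6442). BTG4 alone made up most of that summed level, at 8657.55 FPKM against 3360.44 and 5715.83. Lumican (LUM), a matrix proteoglycan, was at 29.11 FPKM in 8-cell replicate 2 and at 2.21 and 5.59 in the other 8-cell libraries. The collagen gene COL1A1 was at 5.09 against 1.06 and 0.91 FPKM, COL1A2 at 2.68 against 0.16 and 0.24, and COL3A1 at 2.48 against 0 and 0.01. FBN1, a microfibril gene, was at 10.6 against 2.88 and 3.05 FPKM. Not all markers followed: PDGFRA was at 12.91 there against 13.84 and 17.69 FPKM, and SPARC at 29.67 against 53.64 and 25.88. Summed over the 20 markers, the fibroblast list was at 127 FPKM in that library, 90.87 and 75.53 in the other 8-cell libraries, 566.1 to 789.6 in control morulae and 465.2 to 628.1 in KDM6A morulae. SPARC and FN1, which embryonic cells also express, made up most of the morula sum, and PRRX1 was at 0 in all 8-cell and all KDM6A libraries. Without 8-cell replicate 2 the MEST log2 fold change of control morulae was -0.57 (adjusted p = 0.0982) and that of KDM6A morulae -0.79 (adjusted p = 0.0904). The call against control morulae was also lost without control replicate 2 (-0.83, adjusted p = 0.111) or 3 (-0.78, adjusted p = 0.121). The call against KDM6A morulae was lost without KDM6A replicate 2 (-1.14, adjusted p = 0.0623) or 3 (-0.81, adjusted p = 0.113). With no filter on low values neither call passed, at adjusted p of 0.0954 and 0.0943. The part of fibroblast or maternal RNA in the MEST values was not tested.

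**Figure D2:**
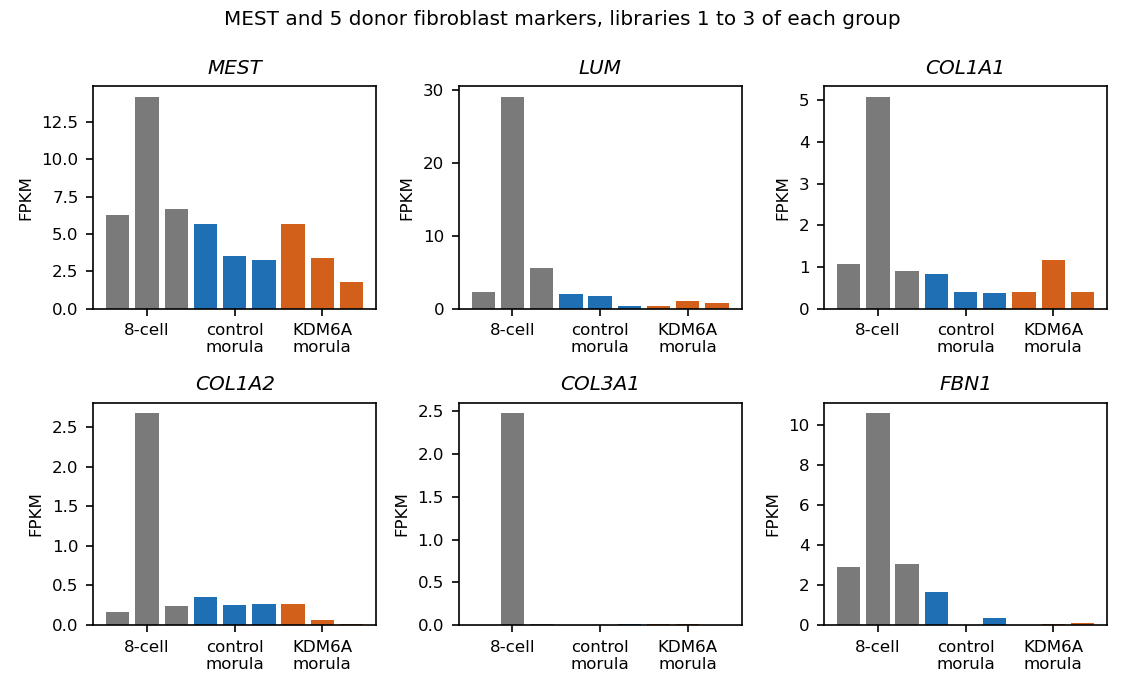
FPKM (linear axis from 0) of MEST and of 5 donor fibroblast markers in each library, with bars for replicates 1 to 3 of 8-cell embryos, control morulae and KDM6A morulae from left to right. These 5 markers were chosen after their values were seen, and the second 8-cell bar is the tallest in each panel, at 14.19 FPKM for MEST and 29.11 for LUM; other markers of the list, such as SPARC and FN1, are higher in morulae.

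GRB10 codes for an adaptor protein that binds the insulin and IGF1 receptors and dampens their signal. It was at 2.02, 2.3 and 1.28 FPKM in 8-cell embryos, 3.43, 4.16 and 2.53 in control morulae and 2.85, 2.52 and 2.15 in KDM6A morulae. Control morulae stood above 8-cell embryos with no overlap, and KDM6A morulae overlapped both. The group means were 1.867 ± 0.527, 3.373 ± 0.8165 and 2.507 ± 0.3502 FPKM. None of the 3 differences passed. The difference between control morulae and 8-cell embryos passed in 2 of 13 alternatives, with all 9 libraries in 1 fit (adjusted p = 0.0348) and without 8-cell replicate 2 (0.72, adjusted p = 0.0404). For control morulae against 8-cell embryos it was 0.61 in log2 (SE 0.253, limma adjusted p = 0.0531). It was 0.30 (SE 0.25, adjusted p = 0.303) for KDM6A morulae against 8-cell embryos, where quantile normalization turned the sign (-0.068). Between the morula groups it was -0.31 (SE 0.223, adjusted p = 0.586).

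NAP1L5 is an intronless, paternally expressed relative of the nucleosome assembly proteins, which are histone chaperones. It was listed at 0 in all 3 8-cell libraries. Control morulae held 1.07, 1.51 and 0.46 FPKM and KDM6A morulae 2.04, 1.66 and 1.09. Every morula library was thus above every 8-cell library, and the morula groups overlapped. KDM6A morulae had a higher mean than controls, 1.597 ± 0.4782 against 1.013 ± 0.5273 FPKM, a difference of 0.39 in log2 (SE 0.259, limma adjusted p = 0.549). Against 8-cell embryos KDM6A morulae were higher by 1.36 (SE 0.214, adjusted p = 0.000249). The gene passed the filter there only through the KDM6A libraries, so this call carries no weight of its own. For control morulae it was under the filter. With no filter, control morulae differed from 8-cell embryos by 0.97 in log2 (SE 0.201, limma adjusted p = 0.0122).

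The insulin-like growth factor gene and its receptor gene stayed under the filter. IGF2 is a paternally expressed growth factor of the fetus and placenta, and IGF2R is the maternally expressed receptor that carries it to lysosomes for breakdown. IGF2 was at 0, 0.27 and 0.2 FPKM in 8-cell embryos, 0.01, 0 and 0 in control morulae, and 0.01, 0 and 0 in KDM6A morulae. Its only values above 0.01 FPKM were thus in 8-cell replicates 2 and 3. IGF2R was at 0.4, 0.35 and 0.06 FPKM in 8-cell embryos, 0.44, 0.49 and 0.29 in control morulae and 0.49, 0.43 and 0.46 in KDM6A morulae. The controls overlapped both other groups, and KDM6A morulae lay above 8-cell embryos by 0.03 FPKM at the nearest.

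The remaining 3 genes were also under the filter. PLAGL1, a paternally expressed zinc finger transcription factor of an imprinted growth network, was at 0.87, 0.72 and 0.9 FPKM in 8-cell embryos, 0.65, 0.22 and 0.14 in control morulae and 0.26, 0.61 and 0.18 in KDM6A morulae. The 8-cell libraries lay above all 6 morula libraries, by 0.07 FPKM at the nearest. With no filter, PLAGL1 was lower by -0.47 in log2 in control morulae (limma adjusted p = 0.0553) and by -0.45 in KDM6A morulae (adjusted p = 0.0435), against 8-cell embryos. PEG10, a retrotransposon-derived gene needed for the placenta of the mouse, was at 0.2, 0.27 and 0.22 FPKM in 8-cell embryos, 0.04 in each control morula library and 0.08, 0.17 and 0.19 in KDM6A morulae. Its 3 groups did not overlap, at levels only a few steps of the 2 decimals the files hold. With no filter, PEG10 differed by 0.14 in log2 (SE 0.0498, limma adjusted p = 0.5) in KDM6A against control morulae and of -0.24 (SE 0.0293, adjusted p = 0.00217) in control morulae against 8-cell embryos. CDKN1C, the maternally expressed inhibitor of cyclin-dependent kinases also known as p57, was at 0.17, 0.32 and 0.26 FPKM in 8-cell embryos, 0.22, 0.26 and 0.67 in control morulae and 0.73, 0.09 and 0.09 in KDM6A morulae. Its groups overlapped in every comparison.

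The order of the levels changed between the stages. In 8-cell embryos PHLDA2 was the highest at 26 ± 7.146 FPKM, above MEST at 9.033 ± 4.47 with no overlap, and GRB10 followed at 1.867 ± 0.527. In control morulae MEST (4.14 ± 1.325), PHLDA2 (3.43 ± 1.437) and GRB10 (3.373 ± 0.8165 FPKM) did not differ beyond their spread. In KDM6A morulae the order was MEST (3.6 ± 1.961), GRB10 (2.507 ± 0.3502), NAP1L5 (1.597 ± 0.4782) and PHLDA2 (1.343 ± 0.4907 FPKM). MEST overlapped each of the others and NAP1L5 overlapped PHLDA2. Every GRB10 value was above every NAP1L5 value, at 2.15 against 2.04 FPKM for the nearest. The 5 genes under 1 FPKM lay between 0.0033 and 0.83 FPKM as group means.

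Counted over the whole list, 4 of 9 genes passed the filter of 1 FPKM in at least 3 of the 6 libraries for KDM6A against control morulae, and 0 were called at a limma adjusted p under 0.05. Among the 4, PHLDA2 had an unadjusted p under 0.05, as did 12.7% of all genes. Of all 9777 genes tested, 16 (0.164%) were called, 0.123% as higher and 0.0409% as lower in KDM6A morulae. Without KDM6A replicate 1, 745 were called, and again 0 of the 4 listed genes. PEG10 and PHLDA2, 2 of the 9, did not overlap between the groups, against 12.6% of all rows. For control morulae against 8-cell embryos 3 genes were tested and 2, PHLDA2 and MEST, were lower, where 69.8% of 10048 genes were called, 27.1% as lower and 42.7% as higher. Here 6 of the 9 did not overlap, against 57.4% of all rows, a share near the background. For KDM6A morulae against 8-cell embryos 4 were tested, with PHLDA2 and MEST lower and NAP1L5 higher, where 66.7% of 10024 genes were called, 25.6% as lower and 41.1% as higher. NAP1L5 passed the filter there only through the KDM6A libraries. Its call carries no weight of its own, although it enters the median given below. Again 6 of the 9 did not overlap, against 55.6% of all rows. Over all genes tested the median difference in log2 was -0.012, 0.35 and 0.34 in these 3 comparisons, against -0.26, -0.91 and -0.41 over the listed genes tested. After quantile normalization the medians over all genes against 8-cell embryos were 0.069 and 0.074. The falls of PHLDA2 and MEST were larger after quantile normalization, at -2.89 and -1.26 for control morulae.

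**Figure D3:**
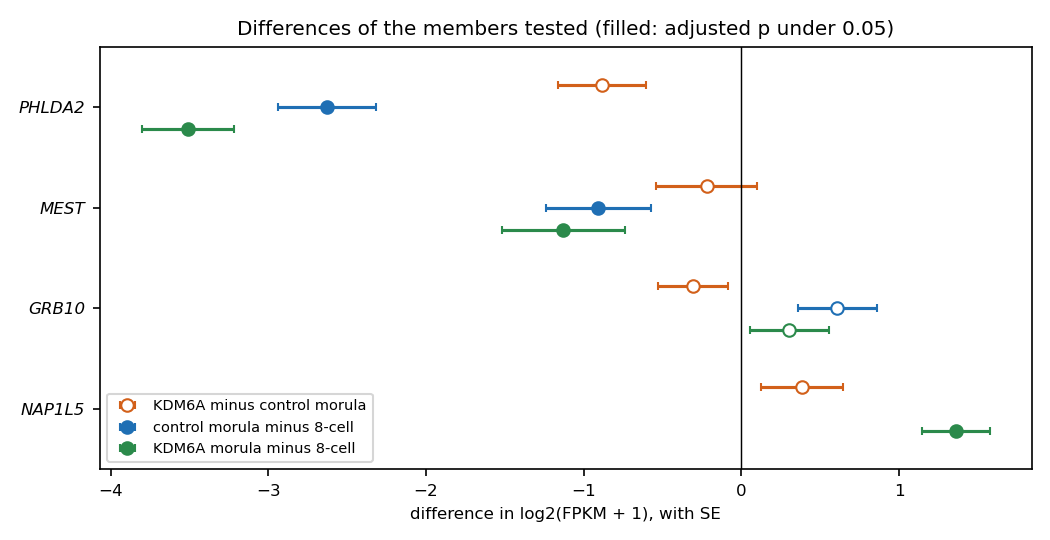
Difference in log2(FPKM + 1) with its SE for the imprinted genes that passed the filter, 1 colour per comparison of 3 libraries with 3; filled points passed the limma adjusted p threshold of 0.05. Between the morula groups no point is filled, and PHLDA2 stands farthest from 0 in the comparisons with 8-cell embryos, at -2.63 and -3.51. The filled point of NAP1L5 carries no weight of its own, since the gene passed that filter only through the KDM6A libraries.

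PHLDA2, CDKN1C and IGF2 lie on the same stretch of chromosome 29, an imprinted region, and their neighbours were followed in the RefSeq gene order of ARS-UCD2.0. That build differs from the authors' UMD3.1, so only the order was used. Neighbouring genes, up to 3 on each side of a listed gene with a row of their own, were chosen after the values of the listed genes were seen. Genes without a row were passed over, so a neighbour need not adjoin the listed gene. NAP1L4, a histone chaperone gene directly beside PHLDA2, was at 135.9 ± 40.48 FPKM in 8-cell embryos, 30.17 ± 2.276 in control morulae and 43.11 ± 10.46 in KDM6A morulae. It fell with PHLDA2 between 8-cell embryos and control morulae, by -2.09 in log2 (SE 0.236, limma adjusted p = 4.21e-05). CARS, a cysteinyl-tRNA synthetase gene next to NAP1L4, rose from 5.757 ± 0.4447 to 10.89 ± 1.315 FPKM (0.81, adjusted p = 0.00815), a call lost after quantile normalization (adjusted p = 0.0689). On the other side of PHLDA2, CDKN1C and TRPM5 stayed near 0. CD81, a tetraspanin gene between CDKN1C and IGF2, rose from 0.803 ± 0.978 to 44.53 ± 17.5 FPKM (4.72, adjusted p = 7.97e-06), and MRPL23, a mitochondrial ribosomal protein gene beyond IGF2, rose from 67.82 ± 34.74 to 173.4 ± 9.789 FPKM (1.48, adjusted p = 0.00292). ASCL2, a trophoblast transcription factor, was the nearest gene with a row on 1 side of IGF2. It was listed at 0 in 8-cell embryos and at 0.01 and 0.0267 FPKM as means of the morula groups. Thus the fall of PHLDA2 was shared by 1 adjacent gene, while others on the same stretch rose or stayed near 0.

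**Figure D4:**
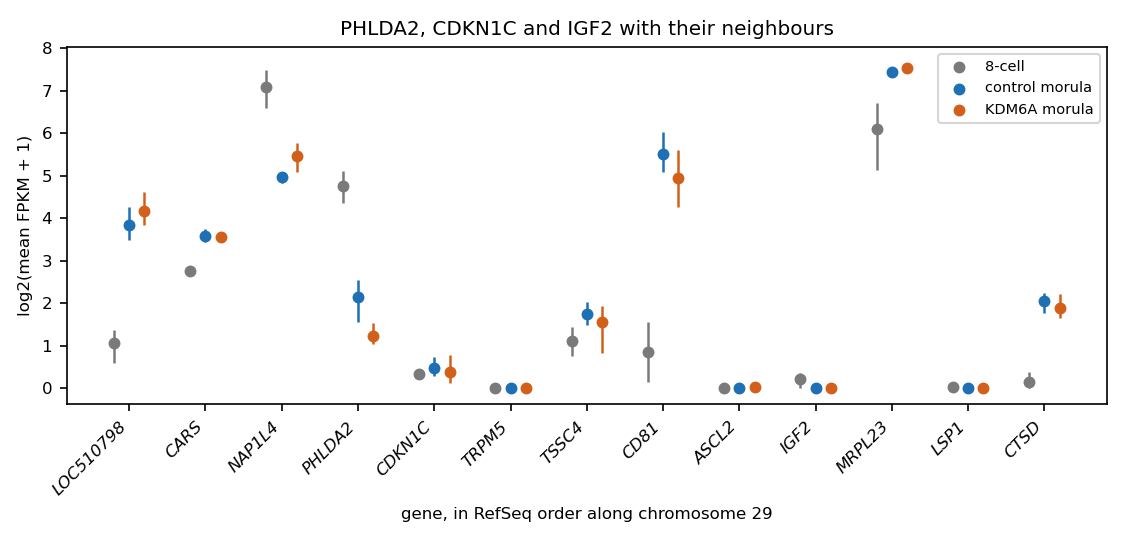
Level, as log2(mean FPKM + 1), of PHLDA2, CDKN1C, IGF2 and their neighbours in RefSeq order along chromosome 29 (equal spacing, not to scale); points are means of 3 libraries and vertical lines run from the lowest to the highest library. NAP1L4 and PHLDA2 are higher in 8-cell embryos, CD81 and MRPL23 are higher in morulae, and TRPM5, ASCL2 and LSP1 lie near 0.

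Elsewhere, MEST and its neighbour COPG2, a coatomer gene that overlaps it on the other strand in other mammals, could share reads if counting ignored strand, on which the sources used here say nothing. COPG2 was at 5.86 ± 1.672, 3.717 ± 1.551 and 2.617 ± 0.3089 FPKM in 8-cell embryos, control and KDM6A morulae. The difference of -0.56 in log2 between control morulae and 8-cell embryos did not pass (limma adjusted p = 0.129), but did after quantile normalization (adjusted p = 0.0191). In KDM6A morulae COPG2 fell by -0.90 against 8-cell embryos (adjusted p = 0.0142). HERC3, the gene whose intron holds NAP1L5 in other mammals, was at 2.957 ± 0.1206 FPKM in 8-cell embryos, 0.393 ± 0.265 in control and 0.9433 ± 0.09504 in KDM6A morulae. In control morulae against 8-cell embryos it passed the filter through the 8-cell libraries alone, so no weight is put on its call. SGCE, the neighbour that shares a promoter region with PEG10, was at 0.54 ± 0.149, 0.29 ± 0.468 and 0.14 ± 0.14 FPKM. Of 44 neighbours in all, 26 were tested between the morula groups and 0 were called by limma, with 2 at an unadjusted p under 0.05. By the same limma fit 11 rose and 8 fell among 26 tested in control morulae against 8-cell embryos, shares near the 42.7% and 27.1% of all genes, and 3 of these calls were of genes under 1 FPKM in every library of the lower group.

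The genes whose pattern over the 9 libraries was most like that of PHLDA2 were SERP1, DCUN1D5 and PCLAF, with Pearson correlations of log2(FPKM + 1) of 0.992, 0.988 and 0.987 among 7279 candidates. SERP1 went from 143.1 ± 5.378 FPKM in 8-cell embryos to 37.21 ± 11.12 in control and 26.31 ± 2.607 in KDM6A morulae. PCLAF, a partner of the replication clamp PCNA, went from 27.16 ± 7.722 to 6.323 ± 0.7162 and 4.163 ± 0.2511 FPKM. For MEST they were ACAT2 (0.979), WSB2 (0.976) and FAM81A (0.964). ACAT2, a thiolase of lipid metabolism, was at 53.09 ± 8.901, 35.87 ± 5.099 and 34.84 ± 6.185 FPKM. The 9 points of each correlation share the stage difference, so the values are descriptions only.

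Factors that protect or set imprints were tested next to the imprinted genes, and 21 of 24 listed had a row. Between the morula groups 13 were tested and 0 called by limma, with 3 at an unadjusted p under 0.05. Over all genes that share was 12.7%, which stands beside such counts in every list. In control morulae 3 of 16 tested were higher and 9 lower than in 8-cell embryos, beside 42.7% and 27.1% of all genes. Under each of 3 other scalings 3 were higher and 11 lower, where 3060 to 3340 of all 10048 genes were lower. The median difference in log2 was -1.02 against 0.35 over all genes. DNMT1, the maintenance DNA methyltransferase, fell from 55.2 ± 18.7 to 8.273 ± 2.28 FPKM (log2 fold change -2.58, limma adjusted p = 3.98e-05). In KDM6A morulae it stood at 19.4 ± 10.6 FPKM. Replicate 1 there, at 7.19 against 25.06 and 25.96, lay within the control range of 5.86 to 10.39. The difference between the morula groups did not pass (limma adjusted p = 0.359). DPPA3, which shields the maternal genome from demethylation, fell from 1618 ± 381.5 to 520.3 ± 133.2 FPKM (-1.64, adjusted p = 0.000268). TRIM28, the corepressor that zinc finger proteins bring to imprints, rose from 18.7 ± 6.27 to 68.32 ± 12.98 FPKM (1.84, adjusted p = 0.000153). TET1, a methylcytosine oxidase, was at 52.7 ± 8.22 and 68.18 ± 2.454 FPKM, OOEP of the subcortical maternal complex at 30.8 ± 12.6 and 21.97 ± 4.733, and the insulator protein CTCF at 32.5 ± 2.92 and 25.07 ± 3.808. These last 3 did not pass (adjusted p from 0.098 to 0.219), although CTCF did under each of 3 other scalings.

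Further imprinted genes, listed from knowledge of mouse, human and cattle and not all known to be imprinted in cattle, gave a mixed picture. Of 69 listed symbols 33 had a row, in 34 rows, since GNAS had 2. Of these rows 13 never reached 1 FPKM and 12 did in all 9 libraries. Between the morula groups 15 were tested and 0 called by limma, with 2 at an unadjusted p under 0.05. In control morulae 8 of 16 were higher and 3 lower than in 8-cell embryos, beside 42.7% and 27.1% of all genes. After quantile normalization 7 were higher and 5 lower, where 3625 of all 10048 genes were higher and 3340 lower. The median difference in log2 was 0.40, against 0.35 over all genes. SNRPN, a paternally expressed spliceosome gene, was at 117.6 ± 8.33 FPKM in 8-cell embryos, 120.6 ± 34.15 in control and 160.1 ± 27.23 in KDM6A morulae (limma adjusted p = 0.993 between 8-cell embryos and control morulae). COMMD1 rose from 84 ± 36.8 to 196.5 ± 21.97 FPKM, PON2 from 2.83 ± 1.64 to 83.4 ± 13.76 and the main row of GNAS, the stimulatory G protein subunit, from 21.6 ± 6.32 to 94.57 ± 27.99. CD81 and NAP1L4, given above, complete the 6 most abundant. IMPACT, a translation regulator singled out after its values were seen, fell from 51.77 ± 9.095 to 8.51 ± 0.9353 FPKM (-2.46, limma adjusted p = 9.74e-06).

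**Figure D5:**
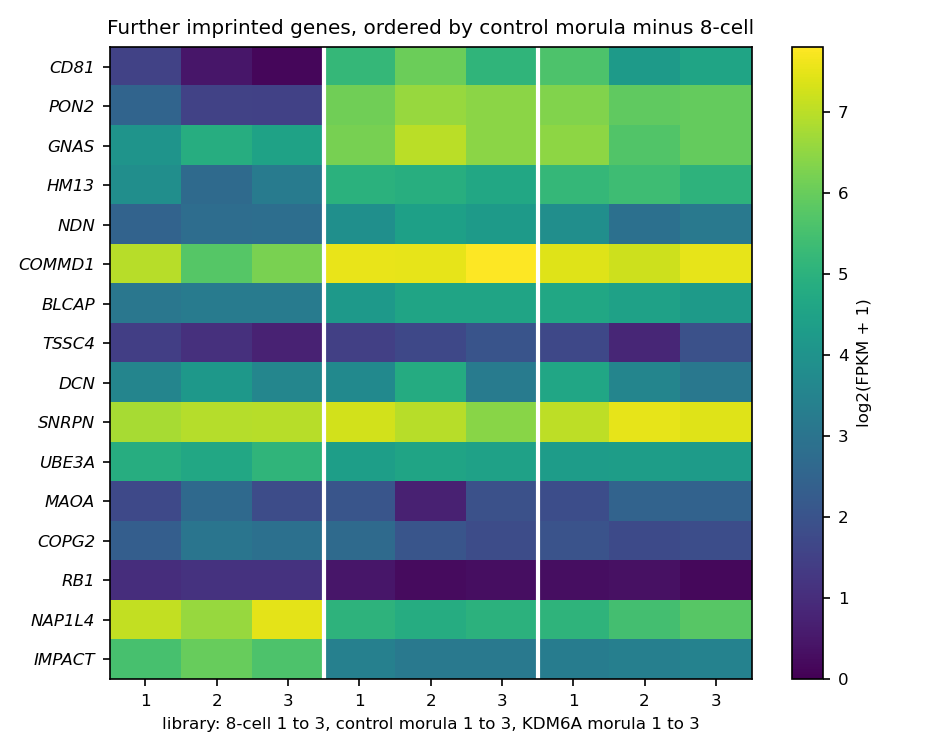
Level, as log2(FPKM + 1) by colour, of the 16 further imprinted genes tested in control morulae against 8-cell embryos, 1 row per gene and 1 column per library (8-cell, control morula, KDM6A morula, replicates 1 to 3 in each). CD81, PON2 and GNAS at the top are darker in the 8-cell columns, IMPACT and NAP1L4 at the bottom are brighter there, and SNRPN is bright throughout.

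In the mouse a separate set of genes is imprinted through maternal H3K27 methylation, the mark KDM6A removes. Of 20 listed candidates for this set, 17 had a row, and 10 were tested between the morula groups, with 0 called by limma and 1 at an unadjusted p under 0.05. The median difference in log2 was 0.063, against -0.012 over all genes. SFMBT2, a polycomb-related gene, was at 5.383 ± 0.2768 FPKM in 8-cell embryos, 6.237 ± 1.157 in control and 6.663 ± 0.8626 in KDM6A morulae. JADE1 was at 19.84 ± 8.005, 18.17 ± 3.358 and 15.22 ± 1.154 FPKM and RBMS1 at 17.85 ± 6.091, 20.55 ± 2.973 and 21.36 ± 4.908. OTX2 was at 2.127 ± 0.7605, 55.42 ± 13.43 and 80.02 ± 24.02 FPKM, CLIC6 at 2.847 ± 1.631, 16.98 ± 7.95 and 8.31 ± 4.04, and SLC38A1, an amino acid transporter, at 12.76 ± 1.507, 1.8 ± 0.7471 and 2.31 ± 0.8628. The limma adjusted p-values of these 6 between the morula groups were 0.344 to 0.952. Against 8-cell embryos 4 of 11 were higher in control morulae and 1 lower, beside 42.7% and 27.1% of all genes.

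Among partners of the imprinted growth genes, levels were uneven. Of 28 insulin and IGF axis genes with a row, 11 never reached 1 FPKM, among them the receptors IGF1R (0.41 to 0.69 FPKM) and INSR (0 to 0.15), and 10 did in all 9 libraries. By limma, 0 of 14 tested were called between the morula groups (1 at an unadjusted p under 0.05), and in control morulae 6 of 13 were higher and 4 lower than in 8-cell embryos, where 42.7% of all genes were higher and 27.1% lower. IGF2BP1, an RNA-binding protein known for binding IGF2 mRNA, rose from 13.68 ± 2.674 to 60.11 ± 16.83 FPKM (log2 fold change 2.03, limma adjusted p = 9.01e-05), whereas its relative IGF2BP3 fell from 27.43 ± 7.242 to 6.117 ± 0.3101 (-1.97, adjusted p = 7.3e-05). The growth kinase MTOR rose from 5.253 ± 1.574 to 25.44 ± 6.183 FPKM and the adaptor GRB2 from 15.26 ± 2.777 to 34.51 ± 6.352. The kinase subunit PIK3CA fell from 23.93 ± 3.951 to 14.1 ± 0.3995 FPKM. Of 14 genes of mannose 6-phosphate sorting, the pathway in which IGF2R works, 0 of 13 tested were called by limma between the morula groups, with 1 at an unadjusted p under 0.05. Of these, 7 of 13 rose in control morulae against 8-cell embryos and 0 fell, or 6 and 1 under each of 3 other scalings, beside the same shares over all genes. The median difference in log2 was 0.69, against 0.35 over all genes. M6PR, the smaller receptor of that pathway, rose from 28.62 ± 0.6962 to 58.25 ± 7.886 FPKM (0.99, adjusted p = 0.00102) while IGF2R stayed under 0.5 FPKM. GNPTG, VPS35 and VPS26A also rose, to 28.62 ± 5.345, 71.13 ± 4.703 and 29.34 ± 2.108 FPKM. VPS29 (413.7 ± 36.74 and 318.4 ± 17.33) and AP1S1 (18.75 ± 6.835 and 18.3 ± 6.291 FPKM) did not pass, at adjusted p of 0.0637 and 0.961. VPS29 was lower and passed under each of the other scalings.

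Of 18 listed cell cycle genes that act with CDKN1C, 12 reached 1 FPKM in all 9 libraries, while CCND1, for cyclin D1, was at 0 to 0.11 FPKM throughout. Of the 18, 16 were tested in each comparison, with 0 called between the morula groups by limma (3 at an unadjusted p under 0.05) and 5 higher and 6 lower in control morulae against 8-cell embryos (42.7% and 27.1% of all genes). The related inhibitor CDKN1B was at 34.78 ± 11.77 FPKM in 8-cell embryos, 50.84 ± 7.99 in control and 58.24 ± 7.283 in KDM6A morulae. CDK4 rose from 10.98 ± 2.926 to 66.82 ± 10.84 FPKM between 8-cell embryos and control morulae, while CDK2 fell from 39.33 ± 8.716 to 23.05 ± 7.111 and CCNE1, its cyclin E1 partner, from 54.03 ± 11.7 to 29.47 ± 2.884. CCNA2 (193 ± 29.67 and 166.2 ± 18.87) and PCNA (356.4 ± 71.41 and 273.8 ± 37.42 FPKM) did not pass, and PCNA was lower and passed under each of the other scalings. In the list of PHLDA, NAP1 and PEG10 relatives and partners 15 of 25 symbols had a row, in 17 rows. Between the morula groups 9 were tested and 0 called by limma, with 3 at an unadjusted p under 0.05, and 3 of 8 were higher and 3 lower in control morulae against 8-cell embryos, beside the same shares over all genes. Of the genes called in the 7 lists between these groups, those with no library of the lower group at 1 FPKM passed the filter through the higher group alone; these numbered 0 to 2 per list. SIAH1, a ubiquitin ligase known as a PEG3 partner, fell from 544.1 ± 183.1 to 30.23 ± 3.015 FPKM (-4.07, adjusted p = 2.24e-06), and the histone chaperone SET from 1922 ± 831.6 to 514.1 ± 168.5. NAP1L1, the abundant relative of NAP1L5, was at 539.3 ± 71.33 and 745.5 ± 92.21 FPKM (0.47, adjusted p = 0.0411) and TSPYL1 at 10.5 ± 2.702 and 18.44 ± 3.782 (0.76, adjusted p = 0.0231). Both calls were lost under each of the 3 other scalings. RTL8A, a retrotransposon-derived relative of PEG10, had 3 rows, and how reads were split between them is not known. The most abundant, ENSBTAG00000038228.1, was at 11.66 ± 5.082 and 6.817 ± 0.9405 FPKM (adjusted p = 0.133), and was lower and passed after quantile (adjusted p = 0.0317) and median-of-ratios scaling (adjusted p = 0.0484). A second row, ENSBTAG00000039434.1, went the other way, at 0.16 to 0.74 FPKM in 8-cell embryos, 0.82 to 1.25 in control and 2.31 to 2.96 in KDM6A morulae. Its difference between the morula groups did not pass (0.79 in log2, limma adjusted p = 0.227). The third row, ENSBTAG00000039890.2, was under the filter, at 0.92 to 2.92 FPKM in 8-cell embryos, 0 to 0.11 in control and 0 to 0.22 in KDM6A morulae.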

How the data were processed

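RNA was measured in 9 libraries of cloned bovine embryos. Per the file headers, the deposited values are FPKM per gene, given by the authors with 2 decimals. The submitters' processing notes name UMD3.1 as the build and RSEM 1.2.12, HISAT 0.1.6, Bowtie2 2.2.5, StringTie 1.0.4 and bcl2fastq 2.16 as tools. What each tool did, and how strand and multiply mapped reads were handled, is not stated there. Files were joined by gene identifier. In control morula replicate 1, 3038 rows without an Ensembl identifier were left out. Whole reads could not be recovered: between library pairs, 3.92% to 8.96% of ratios of low values (0.15 to under 1 FPKM) shared the most frequent bin, 0.1 wide in log2. Precision is therefore taken from the 3 libraries of a group.

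Differences were tested with limma 3.58.1 (R 4.3.3) on log2(FPKM + 1), a group mean each, a trended prior variance and Benjamini-Hochberg adjustment over all genes with at least 1 FPKM in 3 of the 6 libraries compared. The fit was tested on simulated data. Named are all listed genes, the 6 most abundant genes of each list (1 of them is not reported here), and the 3 genes most like each listed gene with a mean of at least 5 FPKM. The members and lists were chosen with earlier results of these data known. Alternatives were a pseudocount of 0.1, no filter, a filter of 5 FPKM, and TPM, median-of-ratios and quantile scaling. Further ones were 1 fit over all 9 libraries, a replicate block and each replicate left out. The tested genes were held fixed except under the changed filters and, between the morula groups, in the fit over all 9 libraries (9709 genes). Python 3.11.15, pandas 2.3.3, numpy 2.4.6 and matplotlib 3.10.9 were used.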

Additional observations from a re-analysis of the deposited data

How the results depend on the processing

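The count of 16 genes called between the morula groups by limma moved to 0 with no filter (1580 at an unadjusted p under 0.05), 25 after rescaling to TPM, 28 after quantile normalization and 10 with all 9 libraries in 1 fit. Leaving out 1 library gave 1 (without KDM6A replicate 3) to 745 calls (without KDM6A replicate 1), with 4 without control replicate 3 and 6 without KDM6A replicate 2. None of the listed imprinted genes was among the calls in any of these fits. Of the listed genes, 1 to 2 were called between control morulae and 8-cell embryos with a library left out. The count was 1 without control replicate 2 or 3. The 2 called without 8-cell replicate 2 were PHLDA2 as lower and GRB10 as higher, while the MEST call was lost. For MEST between the morula groups the difference ran from -0.535 to 0.0991 in log2, above 0 without KDM6A replicate 3. GRB10 in KDM6A morulae against 8-cell embryos turned to -0.0684 after quantile normalization. That normalization gave 3441 higher and 3154 lower calls of 6595 in total for this comparison; the share called higher moved from 61.6% to 52.2%. With the replicate number as a block, 1 gene was called between the morula groups. Same-numbered morula libraries did not deviate together (correlations of deviations of -0.21, -0.216 and 0.133, against -0.183 to 0.285 for unlike numbers). With 3 libraries per group this cannot exclude a pairing, and the labels state none. Depth is unknown, and 2 decimals limit values near 0.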
